A study of Mus musculus with 6 samples.

Results

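Transcripts of colipase and 9 other digestive proteins that are classically products of the pancreas were read in normal duodenum of mice. The 10 genes were Clps, Rnase1, Pnlip, Pnliprp1, Pnliprp2, Cpa1, Cpb1, Cel, Ctrb1 and Prss2. They were chosen by name as colipase and enzymes of pancreatic juice, with earlier results of these data known. A gene was read at the probe set whose platform annotation gave its symbol alone. By this rule 9 of the 10 were measured, each by 1 probe set, of 19938 genes in all. Pnlip had no such probe set, so its signal was not analysed here. The question was whether these genes move together between the genotypes, as they would if pieces of pancreas had been carried over with the duodenum.

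The pancreas lies in the bend of the duodenum and its acinar cells store digestive enzymes as zymogen granules, which are emptied through the duct into the duodenal lumen. Colipase anchors pancreatic lipase to fat droplets coated with bile salts, and trypsin, once activated by enteropeptidase of the duodenal brush border, activates the other proteases. Acinar cells make these transcripts at very high levels, so they are used as markers of pancreatic tissue, although single members are also transcribed in other organs.

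Total RNA from dissected duodenum of Apc+/- and Apc+/-Atg7-/- mice, all on the C57Bl6 background, was hybridised to 1 whole-transcript array per sample. There were 3 samples per genotype, and the labels do not name the animals they came from. Both genotypes carry 1 mutant copy of Apc, which restrains Wnt signalling, and the second also lacks Atg7, an enzyme needed to form autophagosomes. The labels do not give the ages, the part of Atg7 that is deleted or the cells in which it is deleted. Values are deposited probe set signals on the log2 scale, with array medians of 6.43 to 6.56, and the number of arrays limits the precision. Of 10 measured enterocyte markers, all were above the background signal defined below on every array. The array of Apc+/-Atg7-/- replicate 1 came from a male by its Xist (4.58) and Eif2s3y (8.44) signals, while Xist was 10.1 or more on the other 5. All Apc+/- arrays thus read as female, and sex was not balanced between the genotypes. Of 10 lymphoid markers, 6 were highest on Apc+/- replicate 2 and 4 on Apc+/- replicate 1. Ms4a1, a B cell gene (6.45, against 4.74 to 4.85 on the other arrays), Cxcl13 and Cr2 stood out on replicate 2. Signal of the targeted gene Atg7 was 7.16 ± 0.11 for Apc+/- against 6.63 ± 0.16 for Apc+/-Atg7-/- (SD, n = 3), a difference of -0.53 (SE 0.11, limma adjusted p = 0.242 over all genes).

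The measured members divided by their signal. Probe sets give a signal even without transcript, and the 1027 genes named as olfactory receptors (Olfr), which are not known as duodenal transcripts, were used to see its spread. The 95th percentile of their signals lay between 6.03 and 6.28 on the 6 arrays. Clps, Pnliprp2 and Rnase1 were above that level on all 6 arrays and are called readable below. The other 6 measured members (Pnliprp1, Cel, Cpa1, Cpb1, Ctrb1 and Prss2) were below it on all 6 arrays, and below the array's median probe set as well, and are called unreadable.

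**Figure D1:**
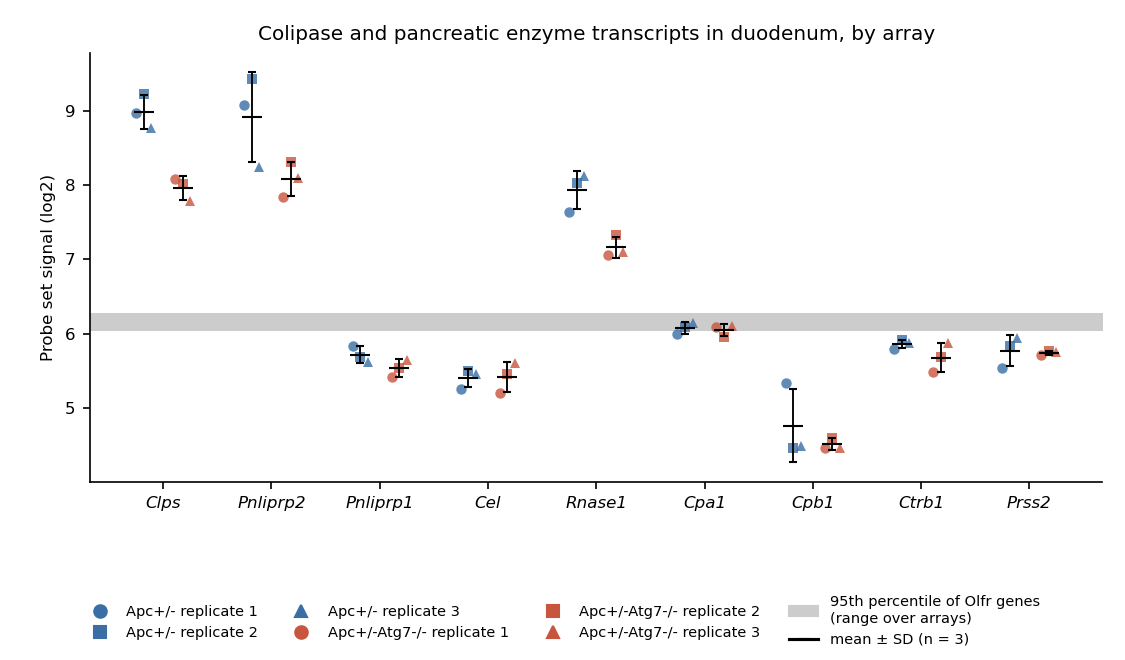
Probe set signal (log2) of the 9 measured members on each array, with the mean and SD per genotype (n = 3, black) and, in grey, the range over arrays of the 95th percentile of olfactory receptor genes (6.03 to 6.28). Clps, Pnliprp2 and Rnase1 lie above the grey band on every array, and the other 6 members lie in or under it, each below the percentile of its own array.

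Clps fell in Apc+/-Atg7-/- duodenum and was the only member to pass the test over all genes. Clps encodes colipase, the cofactor without which pancreatic lipase is washed off the fat droplet by bile salts. Its signal was 8.98, 9.23 and 8.77 in Apc+/- replicates 1 to 3 and 8.09, 8.02 and 7.79 in Apc+/-Atg7-/- replicates 1 to 3. The genotypes did not overlap, and every Apc+/-Atg7-/- array was the lower one. The mean went from 8.99 ± 0.23 to 7.97 ± 0.16 (SD, n = 3), a level 2.04 times lower and a difference of -1.03 (SE 0.13, 95% interval -1.32 to -0.73, limma adjusted p = 0.0219). With 1 array left out at a time the difference stayed between -1.14 and -0.91. The call was kept only without Apc+/- replicate 3 (adjusted p = 0.0401) and was lost in the other 5 cases, without Apc+/- replicate 1 (0.0762) or 2 (0.0698) and without Apc+/-Atg7-/- replicate 1 (0.0755), 2 (0.0583) or 3 (0.0789).

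Of the 9 measured members, 1 fell and 0 rose past an adjusted p of 0.05 by limma, where 0.0401% of all genes were called lower. At an unadjusted p under 0.05, 3 of the 9 were lower (Clps, Rnase1 and Pnliprp2) and 0 higher, where 2.73% of all genes were lower by that rule. In 2 of the 9 (Clps and Rnase1) the genotypes did not overlap with Apc+/-Atg7-/- lower, as was so in 5.23% of all genes. The median difference was -0.18 over the 9 members and -0.02 over all genes, and 8 of the 9 differences were below 0, as were 56.8% over all genes. The members were chosen with earlier results of these data known, so these shares describe the set and do not test it.

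**Figure D2:**
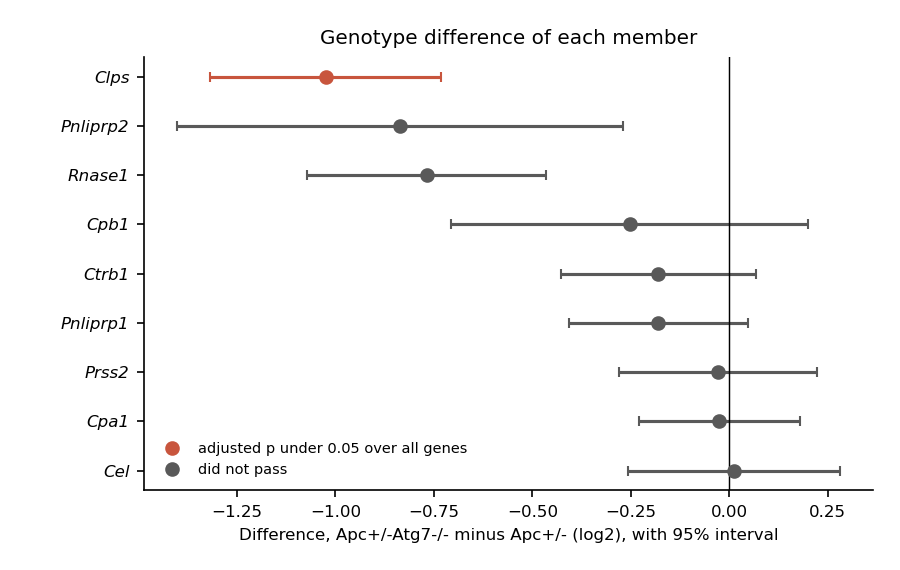
Difference in signal (log2, Apc+/-Atg7-/- minus Apc+/-) of the 9 measured members, with limma's 95% interval. Clps, in red, passed an adjusted p of 0.05 over all genes. The intervals of Clps, Pnliprp2 and Rnase1 lie below 0 and those of the other 6 members include it.

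Among the lipases, Pnliprp2 was the one that could be read. Pnliprp2 is a relative of pancreatic lipase that also takes phospholipids and galactolipids as substrates. It stood at 9.08, 9.43 and 8.25 in Apc+/- and at 7.84, 8.31 and 8.10 in Apc+/-Atg7-/- replicates 1 to 3. Apc+/- replicate 3 was as low as the Apc+/-Atg7-/- arrays, so the genotypes overlapped. The difference of -0.84 (SE 0.25, 95% interval -1.40 to -0.27) did not pass over all genes (limma adjusted p = 0.776). It was -0.58 without Apc+/- replicate 2 and -1.17 without Apc+/- replicate 3.

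Pnliprp1, a relative with little known lipase activity, had signals of 5.84, 5.68 and 5.62 in Apc+/- and of 5.41, 5.54 and 5.65 in Apc+/-Atg7-/-. These were higher than only 83.5 to 93.0% of the olfactory receptor genes. Its difference was -0.18 (SE 0.10, adjusted p = 0.95). Cel, the bile salt-stimulated lipase that cleaves cholesterol and vitamin esters, read 5.26, 5.50 and 5.46 in Apc+/- and 5.20, 5.45 and 5.60 in Apc+/-Atg7-/-. Its difference was 0.01 (95% interval -0.26 to 0.28, adjusted p = 0.999). Neither lipase gave a signal that could be told from that of a probe set with little transcript, and array signal this low compresses differences.

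Rnase1, the pancreatic ribonuclease, which digests RNA, was the second member whose genotypes did not overlap. Its signal was 7.64, 8.03 and 8.12 in Apc+/- and 7.06, 7.33 and 7.10 in Apc+/-Atg7-/- replicates 1 to 3. The lowest Apc+/- array was replicate 1. The mean was 7.93 ± 0.26 against 7.16 ± 0.14 (SD, n = 3), and the difference of -0.77 (SE 0.14, 95% interval -1.07 to -0.46) did not pass over all genes (limma adjusted p = 0.142). It passed at -0.91 without Apc+/- replicate 1 (adjusted p = 0.0391), and with 1 array left out the difference ran from -0.91 to -0.67.

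Upstream sequence is shown for the 2 readable members that have an entry in the RefSeq promoter table (assembly GRCm38.p6), Rnase1 and Pnliprp2, and for Pnliprp1, the unreadable paralogue on the same chromosome as Pnliprp2. In acinar cells the factor PTF1 binds an E-box together with a box read by its RBPJ or RBPJL subunit, so CACCTG and TGGGAA were searched on both strands in the 250 bases before each start. Capitals mark these matches, none of which overlapped another, and each sequence runs 5′ to 3′ along the gene's strand.
Rnase1, chr14:51146768-51147017, minus strand: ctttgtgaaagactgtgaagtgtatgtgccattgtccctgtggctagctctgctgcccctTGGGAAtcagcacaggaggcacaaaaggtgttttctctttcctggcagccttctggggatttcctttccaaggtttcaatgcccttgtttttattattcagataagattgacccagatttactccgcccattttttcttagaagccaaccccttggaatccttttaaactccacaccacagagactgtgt
Pnliprp2, chr19:58759473-58759722, plus strand: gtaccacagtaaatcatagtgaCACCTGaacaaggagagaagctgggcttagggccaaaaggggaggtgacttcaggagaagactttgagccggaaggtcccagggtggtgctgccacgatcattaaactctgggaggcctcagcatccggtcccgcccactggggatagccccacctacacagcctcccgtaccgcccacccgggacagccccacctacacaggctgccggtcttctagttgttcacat
Pnliprp1, chr19:58728637-58728886, plus strand: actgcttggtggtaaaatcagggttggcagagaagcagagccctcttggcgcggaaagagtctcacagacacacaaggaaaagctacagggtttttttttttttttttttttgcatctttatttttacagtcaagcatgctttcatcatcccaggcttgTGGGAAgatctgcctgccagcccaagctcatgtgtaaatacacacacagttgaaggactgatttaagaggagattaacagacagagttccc
Rnase1 and Pnliprp1 each had 1 TGGGAA match and no CACCTG match, and Pnliprp2 had 1 CACCTG match and no TGGGAA match. Entries were found for 9 of the 10 genes, with Pnlip among them and Clps missing, so these are not the 9 measured members. CACCTG was present in 4 of the 9, TGGGAA in 7 and both in 2 (Cel and Prss2). Over all 32851 promoter entries of that length, 17.2% held CACCTG, 21.6% held TGGGAA and 3.91% held both. A match describes letters only and says nothing of binding.

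The 4 proteases among the members, Cpa1, Cpb1, Ctrb1 and Prss2, which pancreas transcribes in bulk, were not readable in either genotype. Cpa1, carboxypeptidase A, which trims aromatic and aliphatic residues from the C terminus, read 5.99, 6.09 and 6.15 in Apc+/- and 6.09, 5.96 and 6.10 in Apc+/-Atg7-/-. Its difference was -0.03 (95% interval -0.23 to 0.18, adjusted p = 0.999). Prss2, an anionic trypsinogen which has near-identical paralogues, so that a probe may also bind their transcripts, read 5.54, 5.83 and 5.94 in Apc+/- and 5.71, 5.76 and 5.75 in Apc+/-Atg7-/-. The genotypes overlapped in both genes, and the difference of Prss2 was -0.03 (95% interval -0.28 to 0.22, adjusted p = 0.999).

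Ctrb1, chymotrypsinogen B, read 5.79, 5.91 and 5.87 in Apc+/- and 5.48, 5.69 and 5.87 in Apc+/-Atg7-/-, a difference of -0.18 (SE 0.11, adjusted p = 0.961). Cpb1, carboxypeptidase B, which removes basic residues, read 5.33, 4.46 and 4.49 in Apc+/- and 4.46, 4.60 and 4.46 in Apc+/-Atg7-/-. A single array, Apc+/- replicate 1, stood above the others in Cpb1, and the difference of -0.25 (SE 0.20, adjusted p = 0.973) became 0.03 without it. Besides Cpb1, that array was the highest in Pnliprp1 and in no other member. The signals of Cpb1 were higher than 49.1 to 81.9% of the olfactory receptor genes, those of Cpa1 than 92.7 to 94.8%.

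The members did not share a highest array. Of the 9, 3 were highest on Apc+/- replicate 2, 3 on Apc+/- replicate 3, 2 on Apc+/- replicate 1 and 1 on Apc+/-Atg7-/- replicate 3. Among the readable members, Clps and Pnliprp2 were highest on Apc+/- replicate 2, and Rnase1 on Apc+/- replicate 3, where Pnliprp2 was 0.249 below its mean over the arrays. The array of Apc+/-Atg7-/- replicate 1 was the lowest in 5 of the 9, namely Rnase1, Pnliprp2 and the unreadable Pnliprp1, Cel and Ctrb1. Between the highest and the lowest array a member spanned 0.19 (Cpa1) to 1.58 (Pnliprp2). In the unreadable members the order of the arrays can be noise of background signal. The counts over all 9 therefore do not decide whether the transcripts moved together.

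Whether Clps moved apart from each other member was tested on the per-array difference between the 2 signals, for 8 pairs. The change of Clps was lower than that of Pnliprp1 by 0.845 (SE 0.21), of Ctrb1 by 0.845 (SE 0.24), of Cpb1 by 0.773 (SE 0.34), of Prss2 by 0.997 (SE 0.22), of Cpa1 by 0.999 (SE 0.19) and of Cel by 1.04 (SE 0.25). Each of these 6 had an exact two-sided permutation p of 0.1, the smallest that 3 against 3 arrays can give, so no pair could reach 0.05 (0.133 after Benjamini-Hochberg adjustment over the 8 pairs). Against Rnase1 and Pnliprp2 the change of Clps was lower by 0.257 (SE 0.24, exact permutation p = 0.4, adjusted 0.457) and by 0.189 (SE 0.29, exact permutation p = 0.5, adjusted 0.5). The 6 members of the first kind lie in the signal range where differences are compressed. Against them the test mostly repeats that the genotypes did not overlap in Clps itself. It cannot show that Clps moved apart from their transcripts.

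Other contents of the zymogen granule were read from a chosen list, and no gene of it passed. Of 28 listed acinar products outside the members, 22 were measured, 0 passed in either direction by limma at an adjusted p of 0.05 (3 were lower and 0 higher at an unadjusted p under 0.05), 17 were lower and 5 higher, and the median difference was -0.11. It was -0.04 without Apc+/- replicate 3. On all 6 arrays 7 of the 22 were above the olfactory receptor level. Bright among these were Reg1 (10.99 to 11.80) and Dmbt1 (11.41 to 11.75), which intestinal epithelium also makes, and the trypsin inhibitor Spink1 (11.38 to 12.12). The other 4 read closer to that level, namely the elastases Cela1 (6.67 to 7.17) and Cela2a (6.60 to 6.97), chymotrypsin C, Ctrc (6.29 to 6.76), and the granule protein Sycn (6.96 to 7.15). On no array was this so for 11 of the 22, among them Gp2, the main protein of the granule membrane (4.34 to 4.88), Amy1 (4.45 to 5.19) and another elastase, Cela3b (5.54 to 5.91). The smallest p values were those of Spink1 (-0.37, SE 0.12, adjusted p = 0.838) and Gp2 (-0.29, SE 0.10, adjusted p = 0.87). In 5 of the 22 (Spink1, Gp2, Cela3a, Try4 and Cuzd1) the genotypes did not overlap with Apc+/-Atg7-/- lower, as in 5.23% of all genes. Of these, Gp2, Cela3a, Try4 and Cuzd1 were above the olfactory receptor level on no array. At an unadjusted p under 0.05, 2.73% of all genes were lower. The list was chosen with earlier results known, so these shares do not test it. The summed signal of the 22 was 13.24 to 13.61 in Apc+/- and 13.17 to 13.44 in Apc+/-Atg7-/- (log2), and 87.7 to 91.0% of it came from Spink1, Reg1 and Dmbt1. That of the other 19 was 10.13 to 10.23 in Apc+/- and 10.07 to 10.14 in Apc+/-Atg7-/-, so both sums overlapped. Whether duodenum or pancreas gave the signal of Spink1 was not tested.

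Transcription factors of the acinar programme and markers of the other pancreatic tissues did not pass either. Of 8 acinar factors 0 passed by limma (1 lower and 0 higher at an unadjusted p under 0.05), with a median of 0.09. Of the 8, 7 were above the olfactory receptor level on all 6 arrays, and among them Rbpjl (6.10 to 6.41) and Bhlha15 (6.33 to 6.64) read close to that level. The exception was Ptf1a, the acinar master factor, which read 5.50 to 5.84, below it on every array. Gata6 (-0.24, SE 0.09, adjusted p = 0.933) and Xbp1 (-0.16, SE 0.09, adjusted p = 0.95) had the smallest p. Of 10 islet markers 0 passed (0 at an unadjusted p under 0.05), with a median of 0.02. The insulin gene Ins2 differed by -0.02 (SE 0.09), while Pdx1 (0.46, SE 0.22), which duodenal epithelium also expresses, and Slc30a8 (-0.11, SE 0.09) had the smallest p. Of 9 duct markers 0 passed (1 lower and 0 higher at an unadjusted p under 0.05), with a median of -0.04, and the first by p were Aqp1 (-0.38, SE 0.12, adjusted p = 0.787) and Krt7 (0.25, SE 0.13, adjusted p = 0.95). The arrays read whole tissue, so whether duodenum or pancreas gave the signal of these factors and markers was not tested.

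**Figure D3:**
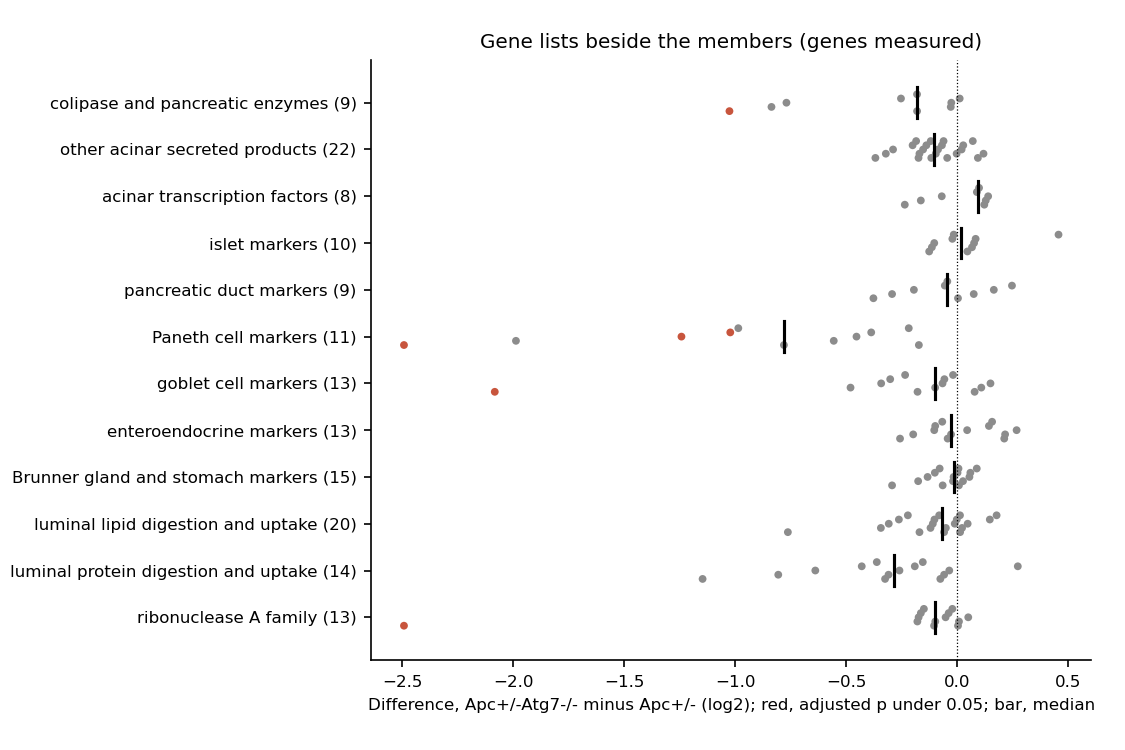
Difference in signal (log2, Apc+/-Atg7-/- minus Apc+/-) of each measured gene in 12 lists, with the number measured in brackets, the median as a black bar and genes past an adjusted p of 0.05 in red. The acinar, islet and duct lists have medians of -0.11 to 0.09, and the Paneth cell list has a median of -0.78. On no array were 11 of 22 other acinar products and 1 of 8 acinar factors above the olfactory receptor level. The same held for 3 of 10 islet, 1 of 9 duct and 0 of 11 Paneth cell markers. Differences at such low signal are compressed, so these medians do not compare like with like.

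Markers of Paneth cells, which release antimicrobial proteins into the crypt, moved in the same direction as Clps. All 11 measured of the 19 listed were lower in Apc+/-Atg7-/-, as were 56.8% of all genes, and the median difference was -0.78. Of the 11, 3 passed an adjusted p of 0.05 by limma (Itln1, Ang4 and Defa24), where 0.0401% of all genes were called lower. All 10 lymphoid markers, all 8 smooth muscle markers and 9 of 10 enterocyte markers were lower as well, and 0 of these passed. The lists were chosen with earlier results of these data known, so these counts describe them and do not test them. The summed signal of the Paneth cell markers was 13.90 to 14.14 in Apc+/- and 12.93 to 13.56 in Apc+/-Atg7-/- (log2). Of the 11, 9 were above the olfactory receptor level on all 6 arrays. The part of these cells in the values of Clps, Rnase1 and Pnliprp2 was not tested. In whole tissue, fewer cells of a type and less RNA per cell cannot be told apart.

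**Figure D4:**
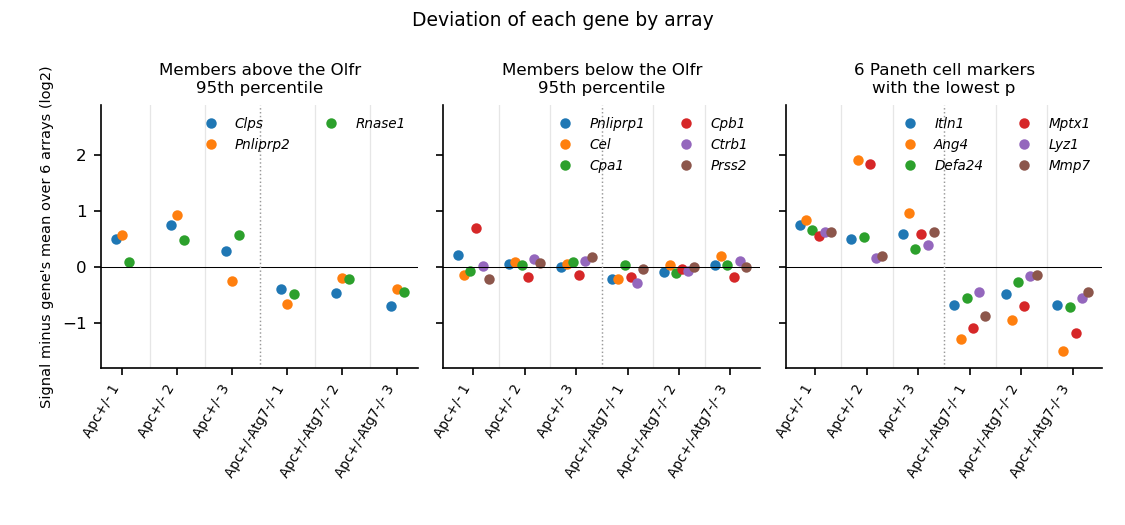
Signal of each gene minus its mean over the 6 arrays (log2), by array, with Apc+/- arrays left of the dotted line. Clps and Rnase1 are above their mean on all 3 Apc+/- arrays and below it on the others. Pnliprp2 also is below it on Apc+/- replicate 3. The 6 members of low signal stay near 0 apart from Cpb1 on Apc+/- replicate 1. The 6 Paneth cell markers were picked by their p between the genotypes, so their separation follows from the choice. Of all 11 measured, 7 had every Apc+/-Atg7-/- array below every Apc+/- array, as had 5.23% of all genes.

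The gene whose profile was nearest to that of Clps, by a measure that includes the genotype difference, was a Paneth cell defensin. Likeness was taken as the root mean square difference between profiles centred on their means over 6 arrays, in log2, as a description without a test. Defa24, an alpha-defensin, was nearest to Clps (0.15), followed by Klrb1, a receptor of natural killer and T lymphocytes (0.204), Reg4 and Fbln1 (0.219 each) and the Paneth and goblet cell lectin Itln1 (0.224). Defa24 read 11.88, 11.75 and 11.54 in Apc+/- and 10.66, 10.94 and 10.50 in Apc+/-Atg7-/-, a difference of -1.02 (SE 0.13, limma adjusted p = 0.0221). That of Clps was -1.03, and genes with a like genotype difference come out near by this measure. Within Apc+/-, Clps was highest on replicate 2 and Defa24 on replicate 1. Within Apc+/-Atg7-/-, Clps was highest on replicate 1 and Defa24 on replicate 2. A shared cell of origin was not tested. Defensin genes have near-identical copies that an array can mix. Nearest to Rnase1 were Bmx, a tyrosine kinase (0.141), Mgat4c (0.148), the monocarboxylate transporter Slc5a8 (0.156), Atg7 itself (0.183) and Gm6034 (0.194). Of these 10 genes, Defa24 and Itln1 passed over all genes.

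No measured relative or neighbour of Clps passed the test. Clpsl2, the measured colipase-like gene and also its neighbour on chromosome 17, differed by -0.04 (SE 0.12, limma adjusted p = 0.999). The 3 nearest measured genes on each side of Clps in RefSeq order (E230001N04Rik, Armc12 and Clpsl2, then Lhfpl5, Srpk1 and Slc26a8) had differences of -0.05 to 0.01. Among them only Srpk1 was above the olfactory receptor level on all 6 arrays. Clpsl2 was above it on 2 arrays, and E230001N04Rik, Armc12, Lhfpl5 and Slc26a8 on 0, where differences are compressed. Of 13 other measured genes of the ribonuclease A family, Ang4, a microbicidal Paneth cell product, fell by 2.49 (SE 0.26, adjusted p = 0.00944), and the next by p was Ang2 (-0.17, SE 0.09, adjusted p = 0.95). Of the 13, 3 were above the olfactory receptor level on all 6 arrays and 9 on no array. The neighbours of Rnase1 on chromosome 14 (Olfr750, Eddm3b, Rnase6, Rnase2b, Ang2 and Ear14) differed by -0.19 to 0.03. Rnase6 and Olfr750, itself an olfactory receptor gene, were above the level on all 6 arrays. Ang2 was above it on 1 array, and Eddm3b, Rnase2b and Ear14 on 0. Of 6 further measured lipase and phospholipase genes all were higher and 0 passed (0 at an unadjusted p under 0.05). Liph (0.21, SE 0.15) and Lipg (0.14, SE 0.11) came first by p. Of these 6 genes, 2 were above the olfactory receptor level on all 6 arrays and 3 on no array. Of 9 carboxypeptidases related to Cpa1 and Cpb1, 0 passed (0 at an unadjusted p under 0.05), with Cpn1 (0.28, SE 0.13) and Cpm (-0.19, SE 0.12) first. Of the 9, 2 were above the olfactory receptor level on all 6 arrays and 5 on no array. Cpa3, the carboxypeptidase of mast cells, differed by 0.001 (SE 0.10).

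The duodenal steps that act with these enzymes were read from chosen lists. Of 20 genes of fat digestion and uptake 0 passed by limma (2 lower and 0 higher at an unadjusted p under 0.05), with a median of -0.07. Cd36, a fatty acid transporter (-0.76, SE 0.23, adjusted p = 0.779), and Apob, the chylomicron scaffold (-0.31, SE 0.13, adjusted p = 0.95), came first by p. Of 14 genes of protein digestion and uptake 0 passed (4 lower and 0 higher at an unadjusted p under 0.05), 13 were lower, and the median was -0.28. Mep1a, a meprin subunit of the brush border (-1.15, SE 0.24, adjusted p = 0.268), and Ace (-0.81, SE 0.28, adjusted p = 0.844) came first, and Tmprss15, the enteropeptidase that activates trypsinogen, differed by 0.27 (SE 0.32). Of 10 genes for hormones and receptors that drive pancreatic secretion 0 passed (0 lower and 1 higher at an unadjusted p under 0.05). The hormone gene Cck read 6.41 to 6.57 in Apc+/- and 6.72 to 6.83 in Apc+/-Atg7-/- (0.27, SE 0.09, adjusted p = 0.841), and its receptor gene Cckar differed by -0.23 (SE 0.13).

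Markers of other tissue that a dissection could hold were counted too. Goblet cell markers numbered 13, of which Retnlb fell by 2.08 (SE 0.22, limma adjusted p = 0.00944) and Spink4 (-0.48, SE 0.12, adjusted p = 0.517) came next, with a list median of -0.10. By the same test 0 passed among 13 enteroendocrine (0 lower and 1 higher at an unadjusted p under 0.05), 15 Brunner gland and stomach (0 and 0), 9 adipose (1 and 0), 10 lymphoid (1 and 0), 11 mast cell (2 and 0), 8 smooth muscle (1 and 0) and 10 enterocyte markers (1 and 0). Their medians were -0.03, -0.02, -0.01, -0.13, -0.06, -0.35 and -0.11 in that order. First by p were Cck with Ghrl (-0.26, SE 0.14), Tff2 (-0.29, SE 0.19) with Gkn1 (-0.18, SE 0.15), Cidec (-0.43, SE 0.14) with Adipoq (-0.24, SE 0.17), Cxcl13 (-0.88, SE 0.37) with Cr2 (-0.35, SE 0.21), Mcpt1 (-1.54, SE 0.29) with Mcpt4 (-0.40, SE 0.10), Des (-0.49, SE 0.19) with Tagln (-0.33, SE 0.16), and Lct (-0.82, SE 0.34) with Apoa4 (-0.22, SE 0.12).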

How the data were processed

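The authors deposited 1 log2 value per probe set and array, made with RMA and Partek per the submitters' processing notes, without versions or settings. The log base was read from the value range of 2.4 to 13.28. RMA as usually run equalises arrays, and array signal compresses low values. Of 28853 probe sets, 21789 had 1 gene symbol in the platform annotation, and the brightest stood for each of 19938 genes.

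Genotypes were compared across all genes with limma's lmFit and eBayes (version 3.58.1, R 4.3.3, two-sided, 9.7 degrees of freedom) and Benjamini-Hochberg adjustment, and the script was tested on simulated data. No animal is named in the labels, so the spread behind each p-value is that between samples and may be technical. The members and lists were chosen with earlier results of these data known. The text names all members, from each list the genes past an adjusted p of 0.05 and the 2 with the smallest p, the 5 genes most alike to Clps and to Rnase1, the 3 measured neighbours on each side of both, and Atg7. Other names were chosen after their values were seen. The exact tests were planned for 9 pairs, of which 8 were measured. Alternatives covered a replicate block, other normalization, moderation, array weights, filters, probe set rules and threshold, and leaving out each array. Plots used matplotlib 3.10.9 (Python 3.11.15).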

Additional observations from a re-analysis of the deposited data

How the results depend on the processing

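The difference of Clps kept its direction under all 16 alternatives run. Its call was lost without variance moderation (-1.03, adjusted p = 0.765, when 0 of all genes and 0 members passed, and 988 genes and 2 members had an unadjusted p under 0.05) and with 5 of the 6 arrays left out singly, over which it ran from -1.14 to -0.91. The count of called members was 2 with the replicate number as a block and with array weights, Rnase1 being the second (adjusted p = 0.0361 and 0.0353), and 0 to 1 with 1 array left out. Without Apc+/- replicate 1 that 1 was Rnase1 and not Clps. Among all genes the number called was 22, and it was 44 with the replicate block, 39 among all probe sets and 2 to 27 with 1 array left out. The 2 came without Apc+/-Atg7-/- replicate 1, the male array, which leaves arrays that all read as female. In that setting Clps differed by -1.087 (limma adjusted p = 0.0755). The part of sex in the calls was not tested. The numbers were not taken as pairs, since nothing in the labels says that they pair animals. Same-numbered arrays deviated together at r = 0.146, -0.074 and 0.24 across genes, and in numbers 1 and 2 another number correlated more (0.179). Each of these was set against the highest of several other correlations, so the check cannot decide whether the numbers are pairs. Members near 0 changed sign. Cpa1 was at 0.007 after a further quantile normalization and 0.003 with arrays centred on their medians, and from -0.069 to 0.02 with 1 array left out. Prss2 was at 0.001 with centring and from -0.144 to 0.056 with 1 left out. Cel was at -0.02 with array weights and from -0.082 to 0.12 with 1 left out, and Cpb1 ran from -0.404 to 0.033. Pnliprp1, Pnliprp2 and Ctrb1 kept their direction and did not pass under any alternative that tested them. Genes dimmer than the filter were not tested under it, which leaves out Cpb1 at a mean of 5 and Pnliprp1, Cel, Cpb1, Ctrb1 and Prss2 at 6.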
